A study of Rattus norvegicus with 9 samples.

Results

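Circadian clock genes were examined in rat prostates on 9 Agilent one-colour arrays. The 10 genes were Bmal1, Clock, Per1, Per2, Per3, Cry1, Cry2, Nr1d1, Nr1d2 and Dbp, and they were found by the RefSeq accession of each probe. All 10 genes were on the array, with 16 probes of 30356 in all. The sham group (3 arrays) had undergone a sham operation for castration, with corn oil under the skin and vehicle by mouth. The BPH group (benign prostatic hyperplasia model, 3 arrays) had been castrated and given dihydrotestosterone, the potent androgen of the prostate, by daily subcutaneous injection (3 mg/kg for 4 weeks), with distilled water by gavage. The BPH+ghrelin group (3 arrays) had received castration and dihydrotestosterone in the same way and, during the last 2 weeks, oral ghrelin once daily (20 nmol/kg). Ghrelin is a stomach hormone that releases growth hormone and stimulates appetite. All were male Sprague Dawley rats bought at 6 weeks of age, and castration and androgen injection were not separated by any group. A figure legend of the study gives another dose and route of ghrelin. Rats were kept under a controlled light/dark cycle with free access to food, but the hour of sacrifice is not given in the sources used here, so no circadian time could be assigned to an array.

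The circadian clock is a feedback loop of transcription in nearly every cell. The proteins BMAL1 and CLOCK bind E-boxes and turn on the Per, Cry, Nr1d1, Nr1d2 and Dbp genes. PER and CRY proteins then block BMAL1 and CLOCK, while the nuclear receptors REV-ERBα and REV-ERBβ, encoded by Nr1d1 and Nr1d2, repress Bmal1 through ROR response elements. In peripheral tissues of rodents, Bmal1 RNA is therefore high at hours when Nr1d1 and Dbp RNA is low.

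Raw signals were weakest on sham replicate 2 (75th percentile 327) and strongest on BPH replicate 1 (1065). Probes well above background made up 61.4% on sham replicate 2 and 69.5% to 75.05% elsewhere, and saturation was absent. Slide was inferred from the scan identifier in the file headers, and arrays that share this identifier are called 1 slide here. On this reading, slide 1 carried the BPH arrays together with BPH+ghrelin replicate 1. Slide 2 carried BPH+ghrelin replicates 2 and 3 and sham replicates 1 and 2, and slide 3 carried sham replicate 3. In each group, 1 array had a value between the other 2 arrays of its group at most of 17858 probes: BPH replicate 2 (74.6%), BPH+ghrelin replicate 2 (72.2%) and sham replicate 3 (76.9%). For the 10 clock genes, these arrays lay between the others for 9, 8 and 9 genes. The study's methods give as many samples as arrays in each group, and its legends give as many rats for BPH and BPH+ghrelin. Whether any array held RNA of more than 1 rat is not given in the sources used here, and p-values measure the spread between these arrays.

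Among the clock genes, only Cry2 passed the test between groups. It was 2.34-fold lower in BPH and 1.96-fold lower in BPH+ghrelin than in sham. Dbp, Nr1d1 and Nr1d2 were lowest on the BPH+ghrelin arrays and differed by at least 1 (log2) within sham and within BPH. Genes in general differed more within sham than within BPH, and Nr1d1 was not well above background on every array. Bmal1 and Cry1 varied in the opposite direction on the same arrays. In whole tissue, fewer cells of a type and less RNA per cell cannot be told apart.

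**Figure D1:**
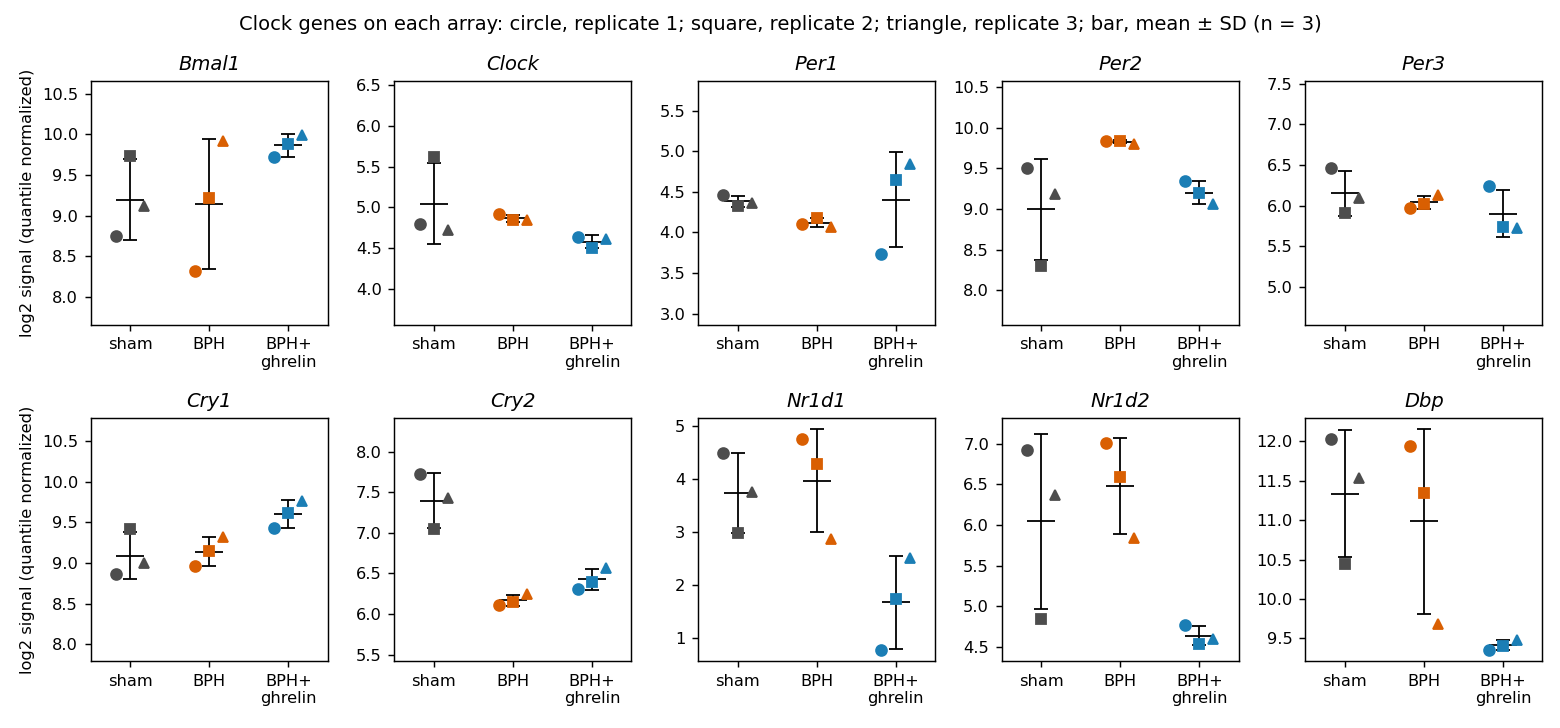
Quantile normalized log2 signal of each clock gene on each of the 9 arrays (points), with mean and SD of each group (bars, n = 3); each panel has its own log2 axis. Cry2 of sham (7.04 to 7.72) lies above Cry2 of the other groups, and Dbp of BPH+ghrelin (9.35 to 9.48) lies below all other arrays.

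Bmal1 encodes the partner of CLOCK in the activating complex and is the gene that REV-ERB proteins repress. The 250 bases before its start site (RefSeq GRCr8, plus strand, chr1:176766078-176766327) are shown because they hold 1 match to the core of the ROR response element, in capitals.
Bmal1: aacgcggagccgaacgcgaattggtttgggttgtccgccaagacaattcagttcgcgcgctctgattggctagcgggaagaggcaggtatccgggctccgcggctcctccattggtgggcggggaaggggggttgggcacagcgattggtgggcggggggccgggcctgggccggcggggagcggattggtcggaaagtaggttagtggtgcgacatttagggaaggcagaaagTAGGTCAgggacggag
Letters searched on both strands were TAGGTCA and TGGGTCA, and 6.6% of 33469 RefSeq promoters of the same length (300 bases, 250 before and 50 after the start) hold a match. A match is a description of letters and not of binding.

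The log2 signal of Bmal1 was 8.74, 9.73 and 9.12 in sham replicates 1, 2 and 3, it was 8.31, 9.21 and 9.91 in BPH, and it was 9.72, 9.88 and 9.99 in BPH+ghrelin. The 3 BPH+ghrelin arrays were among the 5 highest, but sham replicate 2 and BPH replicate 3 lay within or next to them, so the groups overlapped. The range within BPH was 1.60, compared to 0.27 in BPH+ghrelin. BPH+ghrelin minus BPH was 0.72 (standard error 0.40, limma adjusted p 0.334), BPH+ghrelin minus sham was 0.67 (standard error 0.40, adjusted p 0.354), and BPH minus sham was -0.05 (standard error 0.40, adjusted p 0.945). The sign of the latter was turned by leaving out sham replicate 2 or BPH replicate 1. The first difference was 0.30 without BPH replicate 1 and 1.11 without BPH replicate 3, and the second was 0.44 without sham replicate 1. The other probe of Bmal1 followed the first over the 9 arrays (r = 0.91).

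Clock encodes the histone acetyltransferase partner of BMAL1. Its log2 signal was 4.80, 5.62 and 4.72 in sham, 4.92, 4.84 and 4.84 in BPH, and 4.63, 4.49 and 4.61 in BPH+ghrelin. The 3 BPH+ghrelin arrays were the lowest, and sham replicate 2, the array with the weakest raw signal, was the highest. The difference to sham was -0.47 (standard error 0.22, adjusted p 0.249) and that to BPH was -0.29 (standard error 0.22, adjusted p 0.487). The other probe of Clock did not follow the first (r = 0.04), so the pattern of this gene rests on 1 probe. Without sham replicate 2 the difference to sham was -0.18, and with normexp both differences were -0.18 and -0.076.

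Per1, Per2 and Per3 encode the PERIOD repressors. In the 250 bases before the start of Per2 (GRCr8, minus strand, chr9:99496994-99497243), a D-box, the site of DBP, TEF, HLF and NFIL3, and a variant E-box are in capitals.
Per2: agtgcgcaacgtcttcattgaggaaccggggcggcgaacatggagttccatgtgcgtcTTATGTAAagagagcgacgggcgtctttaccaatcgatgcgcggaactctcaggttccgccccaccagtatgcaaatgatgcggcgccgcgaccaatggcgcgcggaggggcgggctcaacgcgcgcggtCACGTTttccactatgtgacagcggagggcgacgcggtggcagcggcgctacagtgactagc
The D-box letters TTATGTAA and TTACGTAA are in 1.01% of the promoters, and the variant E-box CACGTT is in 4.83% of them.

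The log2 signal of Per2 was 9.50, 8.30 and 9.19 in sham, 9.84, 9.84 and 9.80 in BPH, and 9.34, 9.20 and 9.06 in BPH+ghrelin. The BPH arrays were the 3 highest and nearly equal, whereas sham replicate 2 stood 0.76 below the next lowest array. BPH minus sham was 0.83 (standard error 0.28, adjusted p 0.115), and BPH+ghrelin minus BPH was -0.63 (standard error 0.28, adjusted p 0.238). Without sham replicate 1, the former was 1.09 and passed the test (adjusted p 0.0321), whereas without sham replicate 2 it was 0.48 and did not pass (adjusted p 0.091). With normalization and fit limited to the 6 arrays compared, the latter passed (-0.63, adjusted p 0.0281).

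Per1, which also responds to glucocorticoids and other acute stimuli, was at 4.46, 4.33 and 4.36 in sham, 4.10, 4.18 and 4.07 in BPH, and 3.74, 4.64 and 4.84 in BPH+ghrelin. The BPH+ghrelin arrays were both the lowest and the highest of the 9. BPH arrays lay below sham arrays, with a difference of -0.26 (standard error 0.26, adjusted p 0.530). Per3 was at 6.46, 5.91 and 6.09 in sham, 5.98, 6.02 and 6.13 in BPH, and 6.24, 5.74 and 5.73 in BPH+ghrelin. Its groups overlapped in each comparison, and its other probes correlated with the first at r = -0.43 and 0.49 over the 9 arrays, so that Per3 had no clear pattern here.

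Cry1 and Cry2 encode the cryptochromes, which repress BMAL1 and CLOCK together with PER. Of the RefSeq promoters of 9 members (Cry1 has no entry in the table used), that of Cry2 holds a variant E-box (in capitals; CACGTT on the other strand), shown with its flanks (GRCr8, minus strand, chr3:98860624-98860669).
Cry2: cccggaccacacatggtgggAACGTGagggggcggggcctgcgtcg

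The log2 signal of Cry2 was 7.72, 7.04 and 7.43 in sham, 6.11, 6.14 and 6.25 in BPH, and 6.31, 6.40 and 6.57 in BPH+ghrelin. Each sham array was above each array of the other groups, and each BPH+ghrelin array was above each BPH array. Compared to sham, Cry2 fell by 1.23 on the log2 scale in BPH (standard error 0.18, adjusted p 0.0129), and it fell by 0.97 in BPH+ghrelin (standard error 0.18, adjusted p 0.0216). BPH+ghrelin minus BPH was 0.26 (95% interval -0.15 to 0.67, adjusted p 0.433). In the test of any difference between the 3 groups, Cry2 ranked 322 of 20113 genes by p (adjusted p 0.0177), but it did not pass without BPH replicate 2 (0.0739), BPH+ghrelin replicate 2 (0.0654) or sham replicate 3 (0.0769), or with slide as a fixed block (0.305). The fall in BPH did not pass without BPH replicate 2 (adjusted p 0.0824) or sham replicate 3 (0.0629), and the fall in BPH+ghrelin did not pass without BPH+ghrelin replicate 1 (0.0751), BPH+ghrelin replicate 2 (0.103) or sham replicate 3 (0.0914). The size of both differences was similar in these fits, at -1.22 to -1.21 and at -0.96 to -0.91. Within slide 2, BPH+ghrelin replicates 2 and 3 minus sham replicates 1 and 2 was -0.90. BPH and sham shared no slide, and only the BPH+ghrelin arrays linked their slides. In a fit that held slide as a fixed block, the differences to sham were -1.04 in BPH (standard error 0.38, adjusted p 0.655) and -0.90 in BPH+ghrelin (standard error 0.25, adjusted p 0.227), and with normalization and fit limited to the 6 arrays compared they were -1.22 (adjusted p 0.0612) and -0.96 (adjusted p 0.0566), so neither call passed in these fits. With replicate number as a block, the fall in BPH+ghrelin (adjusted p 0.0555) and the test over the 3 groups (adjusted p 0.0553) did not pass. With normexp background correction, both falls passed but were smaller, at -0.78 and -0.61.

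The log2 signal of Cry1 was 8.86, 9.42 and 9.00 in sham, 8.96, 9.14 and 9.32 in BPH, and 9.43, 9.62 and 9.77 in BPH+ghrelin. The 3 BPH+ghrelin arrays were the highest of the 9, by a margin of 0.01 over sham replicate 2. BPH+ghrelin minus sham was 0.51 (standard error 0.18, adjusted p 0.133) and BPH+ghrelin minus BPH was 0.47 (standard error 0.18, adjusted p 0.197). Without sham replicate 2, the former was 0.67 and passed the test (adjusted p 0.0384).

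Nr1d1 and Nr1d2 encode the REV-ERB repressors and are direct targets of BMAL1 and CLOCK. The 250 bases before the outer start of Nr1d1 (GRCr8, minus strand, chr10:84231813-84232062) are shown with a variant E-box in capitals, and the flanks of the E-box CACGTG before its inner start (chr10:84229620-84229665) follow.
Nr1d1 outer start: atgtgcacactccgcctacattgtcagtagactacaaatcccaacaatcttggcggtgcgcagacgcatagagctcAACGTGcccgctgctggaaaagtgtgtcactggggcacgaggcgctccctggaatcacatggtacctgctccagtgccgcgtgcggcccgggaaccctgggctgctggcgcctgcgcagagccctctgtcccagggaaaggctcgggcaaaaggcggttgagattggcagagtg
Nr1d1 inner start: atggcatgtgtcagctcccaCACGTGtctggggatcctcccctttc
CACGTG is in 6.42% of the RefSeq promoters. The cyclic AMP response element TGACGTCA (1.83%) was searched as well and has no match in a member. No motif holds the letters of another. None of the searched motifs is in the windows of Nr1d2, Dbp, Clock, Per1 and Per3.

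The log2 signal of Nr1d1 was 4.49, 2.97 and 3.75 in sham, 4.75, 4.28 and 2.87 in BPH, and 0.77, 1.73 and 2.51 in BPH+ghrelin. Signals well above background were found on 2 of 3 sham, 2 of 3 BPH and 0 of 3 BPH+ghrelin arrays, and the BPH+ghrelin arrays were the 3 lowest. Both comparisons with BPH+ghrelin were therefore not tested. Set against the lowest signal of any probe that counted as above background on each BPH+ghrelin array, the mean of Nr1d1 was 2.40-fold higher in BPH and 2.04-fold higher in sham. These values are estimates and not firm bounds, since both means include 1 array on which Nr1d1 itself was not well above background. On the log2 scale they were 1.26 and 1.03, without 1 array they ranged from 0.87 to 1.81 and from 0.66 to 1.41, and with normexp background correction, which adds an offset to dim probes, they were 0.26 and 0.20.

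The log2 signal of Nr1d2 was 6.92, 4.84 and 6.37 in sham, 7.01, 6.59 and 5.84 in BPH, and 4.77, 4.54 and 4.60 in BPH+ghrelin. The BPH+ghrelin arrays were the 3 lowest and lay within 0.23 of each other, and sham replicate 2 was only 0.07 above them. BPH+ghrelin minus BPH was -1.85 (standard error 0.51, 95% interval -3.01 to -0.68, adjusted p 0.105), and BPH+ghrelin minus sham was -1.41 (standard error 0.51, adjusted p 0.138). The former passed with the 6 arrays compared alone (-1.87, adjusted p 0.0252), and the latter without sham replicate 2 (-2.02, adjusted p 0.0152). On slide 1, BPH+ghrelin replicate 1 minus the mean of the BPH arrays was -1.71, and on slide 2 BPH+ghrelin replicates 2 and 3 minus sham replicates 1 and 2 was -1.31. With normexp, the differences to BPH and to sham were smaller, at -0.77 and -0.57 (adjusted p 0.162 and 0.246).

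Dbp encodes an activator of D-box genes and is an output gene of the clock with a large daily amplitude. Its log2 signal was 12.03, 10.45 and 11.54 in sham, 11.94, 11.35 and 9.68 in BPH, and 9.35, 9.41 and 9.48 in BPH+ghrelin. The BPH+ghrelin arrays were the 3 lowest within a range of 0.13, while the range was 1.58 within sham and 2.26 within BPH, where replicate 3 came close to the BPH+ghrelin arrays. BPH+ghrelin minus sham was -1.92 (standard error 0.58, adjusted p 0.0911), BPH+ghrelin minus BPH was -1.57 (standard error 0.58, 95% interval -2.91 to -0.23, adjusted p 0.182), and BPH minus sham was -0.35 (standard error 0.58, adjusted p 0.720). The first of these passed without sham replicate 2 (-2.35, adjusted p 0.0462). Both other probes of Dbp followed the first over the 9 arrays (r = 0.99 for each). Within slide 1 the difference to BPH was -1.64, and within slide 2 that to sham was -1.79.

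**Figure D2:**
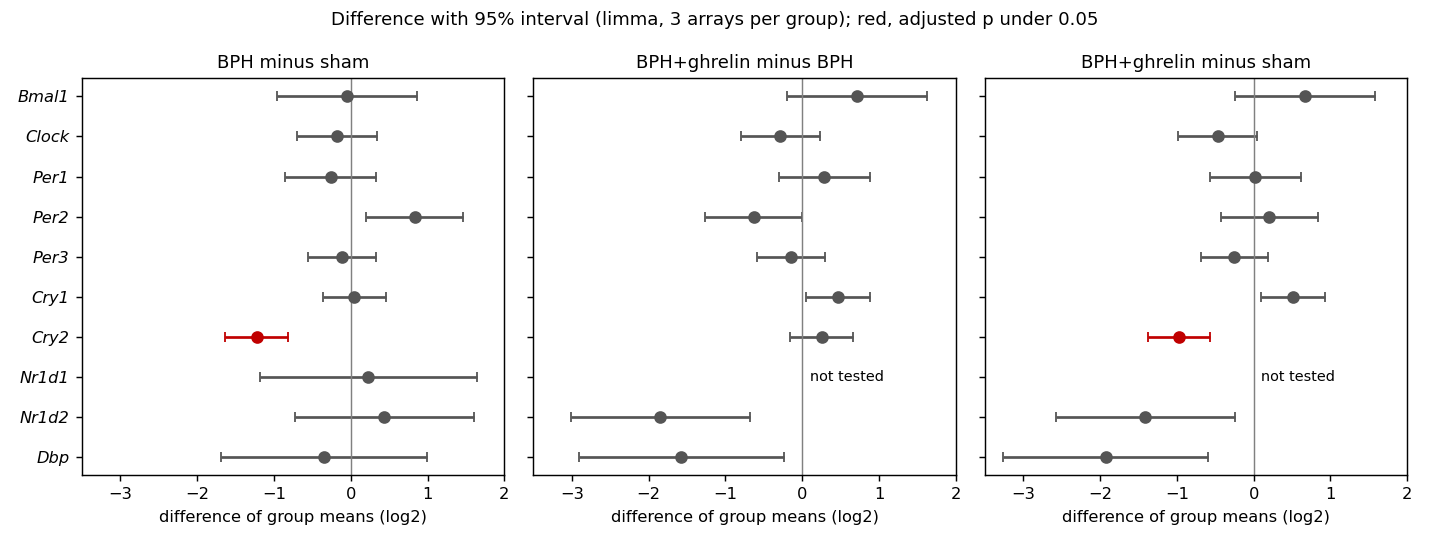
Difference of group means (log2) of each clock gene in the 3 comparisons, with 95% intervals from limma (3 arrays per group); red marks an adjusted p under 0.05. Cry2 is red for BPH minus sham (-1.23) and BPH+ghrelin minus sham (-0.97), and the intervals of Nr1d2 and Dbp are wide.

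In BPH compared to sham, 1 of 10 clock genes passed the test (adjusted p under 0.05), where 4.34% of all 19552 genes passed (2.18% as lower), and 2 of 10 had an unadjusted p under 0.05 (26.5% of all genes). In BPH+ghrelin compared to BPH, 0 of 9 passed, where 1.48% of 19749 genes did, and 3 of 9 had an unadjusted p under 0.05 (21.1% of all genes). In BPH+ghrelin compared to sham, 1 of 9 passed, where 6.29% of 19197 genes did (3.3% as lower), and 4 of 9 had an unadjusted p under 0.05 (23.7%). The 2 comparisons with BPH+ghrelin share its arrays. Over the 3 groups together, 1 of 10 passed, where 6.6% of 20113 genes did, and 6 of 10 had an unadjusted p under 0.05 (30.1%). Nr1d1 is 1 of these 6 and entered this test only through sham and BPH, so nothing is read from its p (0.0106). Differences of at least 1.5-fold were seen in 2 of 10, 4 of 9 and 4 of 9 members, where the share of all genes was 24.3%, 18.8% and 20.7%. No overlap between arrays of the 2 groups was seen in 3 of 10, 6 of 9 and 5 of 9 members in the 3 comparisons, where the share of all genes was 31.3%, 39.2% and 30.4%. The median difference of the members was -0.08, -0.14 and -0.25, compared to 0.04, 0.02 and 0.04 over all genes tested. Without 1 array, the members' medians ranged from -0.16 to -0.037, from -0.31 to -0.053 and from -0.42 to -0.099. The outer values came without sham replicates 2 and 1, without BPH+ghrelin replicates 1 and 3, and without BPH+ghrelin replicate 1 and sham replicate 1. Without the 3 arrays that lay between the others, 0 members passed in any of the 3 comparisons.

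Nr1d1, Nr1d2 and Dbp each varied by at least 1 (log2) both within sham and within BPH, as did 3 of the 21 other clock genes described below (Tef, Ciart and Id2, the latter named after its values were seen), where 3.95% of all genes did so. Nr1d1 was well above background on only 2 of 3 sham and 2 of 3 BPH arrays, and Id2 on 2 of 3 sham arrays. The ranges of Nr1d1 and Id2 thus include dim arrays, and nothing is read from their part in the count. Within BPH+ghrelin, only Nr1d1, which was below background there, varied by at least 1 among these 6 genes. Over all genes, the median range was 0.61 within sham and 0.33 within BPH, and the top decile began at 1.68 and at 0.94. Within sham, the range of Dbp (1.58) was below this decile and that of Nr1d2 (2.08) was in it. Within BPH, both were in it (2.26 and 1.17). Bmal1 varied by 1.60 within BPH and by 0.99 within sham. Per2, Cry2 and Clock had ranges of 0.04, 0.14 and 0.08 within BPH, but of 1.20, 0.68 and 0.89 within sham. That of Cry2 within sham was near the median of all genes. For Per2 and Clock, sham replicate 2 (8.30 and 5.62), the array with the weakest raw signal, stood apart from the other sham arrays. The range over all 9 arrays was 2.68 for Dbp and 2.47 for Nr1d2, above 91.7% and 89.9% of all genes. A range of at least 2 was seen in 16.3% of all genes. No range over all arrays is given for Nr1d1, since its lowest arrays were below background.

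For a view of the clock on each array, the mean deviation (from the mean of the 9 arrays) of Bmal1, Clock and Cry1 was subtracted from that of Per1, Per2, Per3, Cry2, Nr1d1, Nr1d2 and Dbp. This value was 1.198, -0.69 and 0.65 in sham, 1.01, 0.48 and -0.35 in BPH, and -0.84, -0.74 and -0.71 in BPH+ghrelin. The BPH+ghrelin arrays were the 3 lowest within a range of 0.12, followed by sham replicate 2 and BPH replicate 3, but this order rests on Nr1d1, which was below background in BPH+ghrelin. Without Nr1d1 the BPH+ghrelin values were -0.57, -0.61 and -0.68, and sham replicate 2 was the lowest array (-0.71). On the other 4 arrays the value was positive with and without Nr1d1. Thus sham and BPH each held arrays with high and with low values, and BPH+ghrelin held low values only. This is a description, and no test was made of it.

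**Figure D3:**
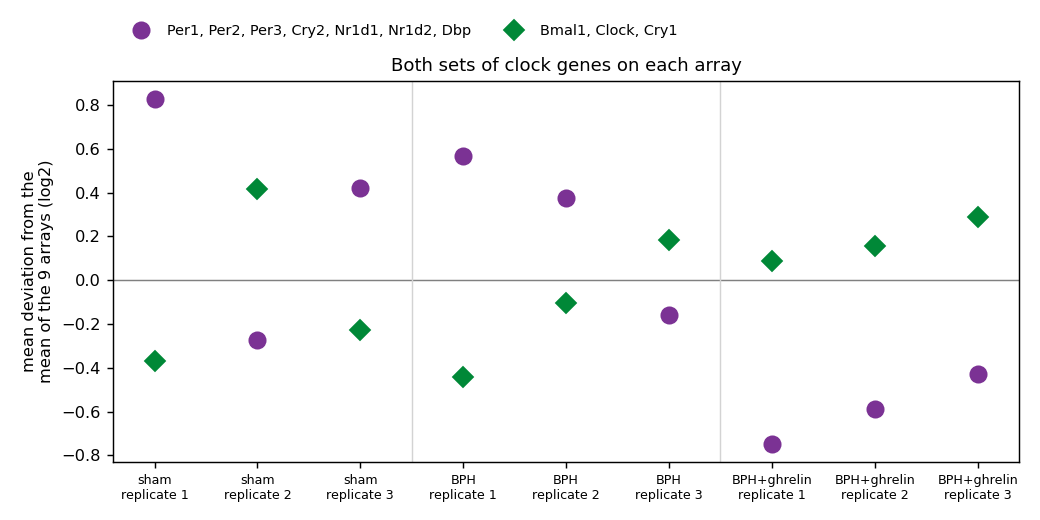
Mean deviation from the mean of the 9 arrays (log2) for 7 clock genes (circles) and for Bmal1, Clock and Cry1 (diamonds) on each array. Circles lie below diamonds on all BPH+ghrelin arrays, on sham replicate 2 and on BPH replicate 3, and above them on the other 4 arrays.

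Across the 9 arrays, the log2 signal of Bmal1 was correlated with each of the 9 other members (9 pairs, exact two-sided permutation tests with Benjamini-Hochberg adjustment). Dbp (r = -0.92, adjusted p 0.00424; Spearman rho = -0.77, adjusted p 0.0481) and Nr1d2 (r = -0.88, adjusted p 0.00644; rho = -0.83, adjusted p 0.0372) were inversely related to Bmal1 in this exact test. For Nr1d1, whose signal was not well above background on 5 of 9 arrays, r was -0.80 and rho -0.77, given as a description with nothing read from its p. On the deposited matrix, the Spearman test of Dbp did not pass (adjusted exact p 0.0642). Cry1 was positively related to Bmal1 (r = 0.88, exact adjusted p 0.00644; rho = 0.87, adjusted p 0.0372). For Clock, Per1, Per2, Per3 and Cry2, r lay between -0.45 and 0.20 and none passed. After subtraction of group means, r pooled over the groups was -0.94 for Dbp, -0.86 for Nr1d2, -0.69 for Nr1d1 and 0.85 for Cry1. Within BPH+ghrelin, where Bmal1 and Dbp differed little between arrays and Nr1d1 was below background, Dbp and Nr1d1 ranked the arrays in the same order as Bmal1 and not in the inverse order seen within sham and within BPH. Without the 2 arrays farthest from the median of Bmal1 (BPH replicate 1 and sham replicate 1), r was -0.93, -0.81, -0.65 and 0.88 in this order, and no pair passed the adjusted exact test on 7 arrays (0.067, 0.081, 0.258 and 0.067). Without the 3 arrays that lay between the others, r was -0.93, -0.88, -0.78 and 0.88 on 6 arrays, and no pair passed either. These tests treat the 9 arrays as independent, and many genes besides the clock genes followed the same order of arrays: of 11790 named genes ranked by their correlation with Bmal1, Dbp was number 80 from the inverse end.

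**Figure D4:**
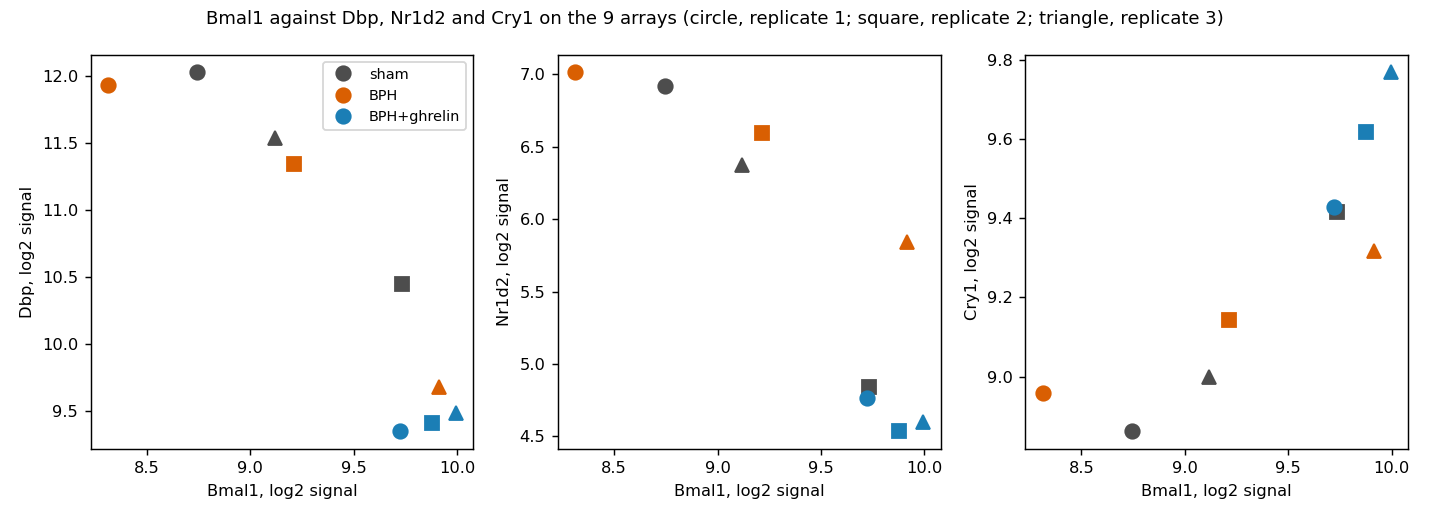
Log2 signal of Bmal1 against that of Dbp, Nr1d2 and Cry1 on the 9 arrays, coloured by group. Dbp and Nr1d2 go down with Bmal1 going up (r = -0.92 and -0.88), and Cry1 goes up with it (r = 0.88).

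By Pearson correlation over the 9 arrays, the 5 genes most like Dbp were Mfhas1, Id3, Clec14a, Zc3h6 and Srpk2 (r = 0.98 to 0.99), and none of them is a member. Nr1d2 ranked 151 by likeness to Dbp (r = 0.91). The 5 genes most like Bmal1 were Bet1, Zfp260, Dnajb11, Erp29 and Rexo4 (r = 0.98 to 0.99), and Cry1 ranked 157 (r = 0.88).

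Of 30 other genes with roles in the clock, 21 could be named on the array, and all 21 were tested in each comparison. Of these, 2 passed in BPH compared to sham, both higher, where 2.16% of all genes passed as higher. In BPH+ghrelin compared to BPH 1 was higher and 2 were lower (0.496% and 0.987% of all genes), and in BPH+ghrelin compared to sham 1 was higher (2.99%). The medians over the 21 genes were 0.16, 0.06 and 0.08.

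Bhlhe40 encodes DEC1, a repressor that competes for E-boxes. An E-box stands before its start (GRCr8, plus strand, chr4:143174210-143174255), as one does before that of Tef (plus strand, chr7:115206609-115206654).
Bhlhe40: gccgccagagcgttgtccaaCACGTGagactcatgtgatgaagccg
Tef: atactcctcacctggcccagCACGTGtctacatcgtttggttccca

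The log2 signal of Bhlhe40 was 4.19, 3.35 and 3.59 in sham, 5.36, 5.44 and 5.07 in BPH, and 4.01, 4.14 and 3.44 in BPH+ghrelin. All BPH arrays were above the other 6. Bhlhe40 rose in BPH compared to sham (1.58, standard error 0.26, 2.98-fold, adjusted p 0.0202) and, compared to BPH, fell by 1.42 in BPH+ghrelin (standard error 0.26, adjusted p 0.0436). Only 2 of 3 sham arrays were well above background for this gene, so the fold is an estimate. Without 1 array, the rise passed in 2 of 6 fits (without sham replicate 1 or 2) and the fall in 0 of 6, with the sizes between 1.41 and 1.82 and between -1.56 and -1.21. With slide as a fixed block neither passed (1.29, adjusted p 0.727, and -1.27, adjusted p 0.403), and the rise did not pass with the 6 arrays compared alone (adjusted p 0.0609). The fall did not pass with replicate number as a block (adjusted p 0.0797) or with no filter on dim probes (adjusted p 0.0641). With normexp, both passed but were only 0.37 and -0.35 in size.

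Timeless encodes a replication fork protein, and its name comes from the clock gene of flies. Its log2 signal was 6.72, 7.11 and 6.81 in sham, 6.88, 7.47 and 7.93 in BPH, and 8.81, 8.60 and 8.50 in BPH+ghrelin. The BPH+ghrelin arrays were the 3 highest. Timeless rose in BPH+ghrelin compared to sham (1.76, standard error 0.25, 3.38-fold, adjusted p 0.00947), and passed in 6 of 6 fits without 1 array. It did not pass with slide as a fixed block (1.63, adjusted p 0.151) or without the 3 arrays that lay between the others (1.74, adjusted p 0.508). BPH+ghrelin minus BPH was 1.21 (adjusted p 0.0608), and it passed under 4 of 18 alternatives (normexp, the 6 arrays compared alone, slide as a random block, and without BPH replicate 3). Cell cycle markers (7 of 10 tested) moved with it: the log2 of their summed signal was 10.01 to 10.65 in sham, 10.2 to 11.5 in BPH and 11.6 to 12.4 in BPH+ghrelin. The brightest markers weigh most in such a sum, and the part of these markers in the result was not tested.

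Prkaa1 and Prkaa2 encode the catalytic subunits of AMP-activated kinase, which marks CRY1 for degradation. Prkaa1 rose in BPH compared to sham (0.61, standard error 0.14, adjusted p 0.0486). Compared to BPH, Prkaa2 fell by 0.92 in BPH+ghrelin (standard error 0.16, adjusted p 0.0375). Csnk1e encodes a kinase of PER proteins and rose in BPH+ghrelin compared to BPH (0.75, standard error 0.13, adjusted p 0.0393). The mean over its probes was 0.30 higher and did not pass. The other probes of Csnk1e correlated with the first at r = 0.68 and -0.35. Without 1 array, Prkaa1 passed in 1 of 6 fits (without sham replicate 1), Prkaa2 in 1 of 6 (without BPH replicate 3) and Csnk1e in 0 of 6. None of the 3 calls passed with slide as a fixed block (adjusted p 0.606, 0.368 and 0.265) or with replicate number as a block (0.108, 0.0803 and 0.105). The same held with no filter on dim probes (0.0678, 0.0523 and 0.0549). Prkaa1 also did not pass with 75th percentile scaling (0.0522) or with the 6 arrays compared alone (0.118). With normexp Csnk1e was 0.35 (adjusted p 0.0453).

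Npas2 encodes a paralog of CLOCK. Its log2 signal was 7.90, 6.96 and 7.71 in sham, 5.23, 5.89 and 6.37 in BPH, and 6.54, 6.18 and 5.42 in BPH+ghrelin. All sham arrays lay above the others. BPH minus sham was -1.69 (standard error 0.40, adjusted p 0.0534), and this passed under 7 of 18 alternatives, among them without sham replicate 2 and with normexp (-0.97). The other probe of Npas2 did not follow the first (r = 0.06).

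Tef and Nfil3 act on D-boxes, as an activator and a repressor. The log2 signal of Tef was 9.27, 8.08 and 8.89 in sham, 9.79, 9.33 and 8.58 in BPH, and 8.05, 7.82 and 7.65 in BPH+ghrelin, so that Tef was lowest in BPH+ghrelin like Dbp, with a difference to BPH of -1.39 (standard error 0.37, adjusted p 0.0992). That of Nfil3 was 4.82, 3.81 and 4.26 in sham, 4.47, 4.84 and 5.39 in BPH, and 5.46, 5.32 and 5.22 in BPH+ghrelin, with a difference to sham of 1.03 (standard error 0.30, adjusted p 0.0792). With normexp this difference was 0.28, and Nfil3 was well above background on only 2 of 3 sham arrays. Ciart, which encodes the repressor CHRONO, was at 6.71, 4.22 and 6.13 in sham, 6.52, 5.74 and 4.70 in BPH, and 5.11, 4.89 and 4.23 in BPH+ghrelin. Sham replicate 2 and BPH replicate 3 had the lowest Ciart signals of their groups, as they did for Dbp and Nr1d2.

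**Figure D5:**
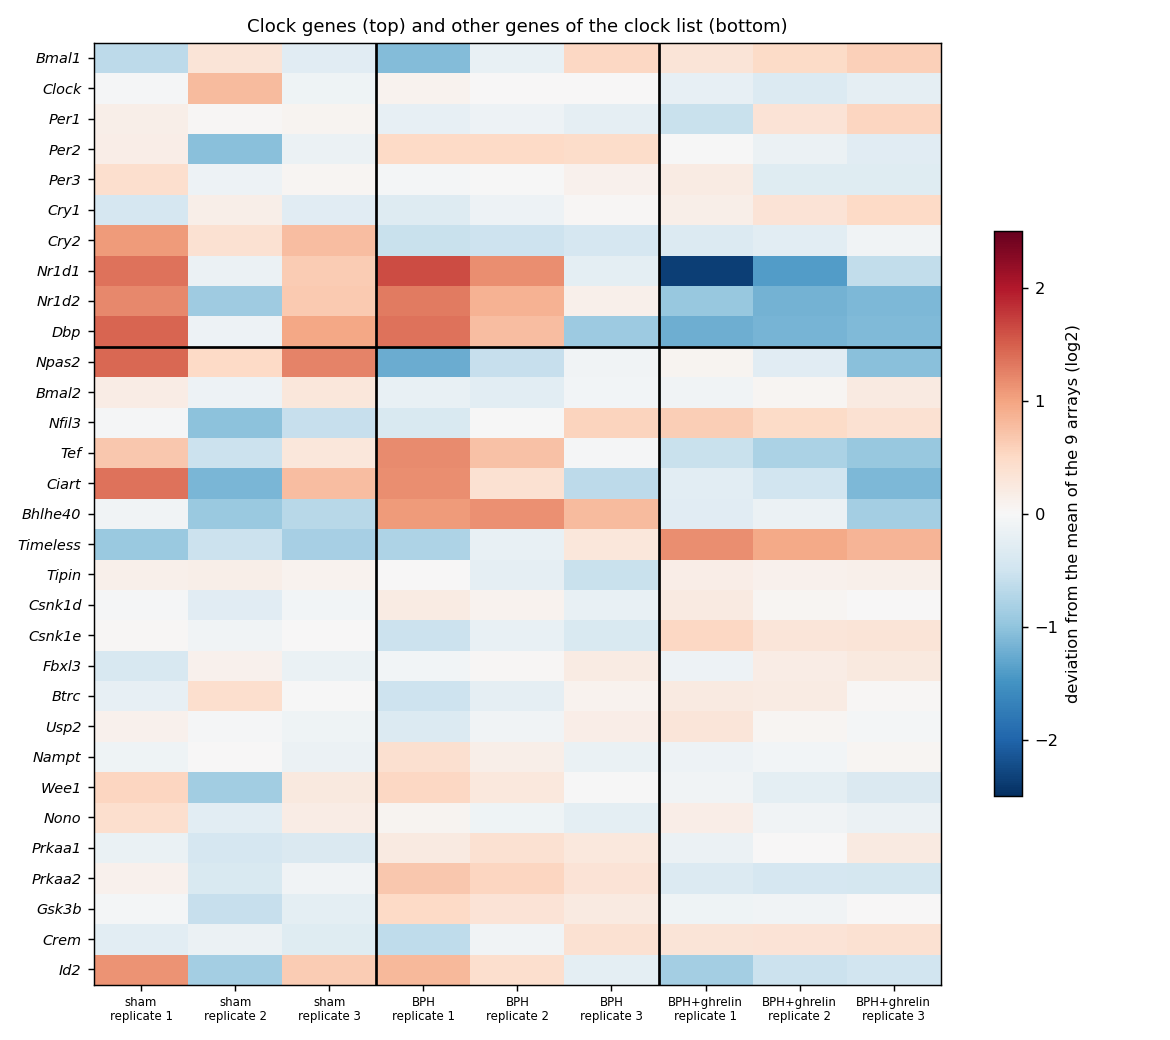
Deviation of each clock gene (top 10 rows) and of 21 other genes of the clock list (bottom) from its mean over the 9 arrays, in log2 (red above, blue below; colours end at 2.5). Nr1d1, Nr1d2, Dbp, Tef and Ciart are high on sham replicates 1 and 3 and BPH replicates 1 and 2, and Timeless is high on all BPH+ghrelin arrays.

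Other gene lists moved on the same arrays, and their part in the results was not tested. The secretory proteins of seminal vesicle and coagulating gland, which lie next to the prostate, had a higher summed signal in sham, where Cry2 was higher too. For 7 of 10 markers tested, the log2 of the summed signal was 16.5 to 17.3 in sham, 9.56 to 14.8 in BPH and 9.13 to 11.9 in BPH+ghrelin. Of these 7 markers, 4 were lower in BPH than in sham (3 passed) and 3 were higher (0 passed), and 5 were lower in BPH+ghrelin than in sham (4 passed) and 2 were higher (0 passed). Striated muscle markers (10 of 12 tested) were at 10.58 to 10.99 in sham, 9.57 to 10.25 in BPH and 9.92 to 10.04 in BPH+ghrelin. Prostate secretory markers (9 of 10 tested) were at 17.7 to 17.8 in sham and 16.3 to 16.6 in the other groups, and of these Pbsn (probasin) passed as lower in BPH than in sham. Immediate early genes (10 of 12 tested), which respond within minutes to handling and stress, had mean deviations of 1.105, -0.46 and 0.73 in sham, 0.11, -0.07 and -0.28 in BPH, and -0.26, -0.38 and -0.50 in BPH+ghrelin, which is the order of Dbp within sham and within BPH. General epithelial markers (8 of 8 tested) had mean deviations of 0.11, -0.53 and -0.08 in sham, 0.52, 0.27 and -0.08 in BPH, and 0.07, -0.10 and -0.19 in BPH+ghrelin. Glucocorticoid responsive genes (9 of 10 tested) were at 0.83, 0.55 and 0.72 in sham, 0.27, 0.03 and -0.61 in BPH, and -0.59, -0.63 and -0.57 in BPH+ghrelin. Of these 9 genes, 5 were higher and 4 lower in BPH than in sham, with a median difference of 0.01. Only Mt1 and Mt2A passed in that comparison, both as lower. Adipocyte markers (7 of 9 tested) were at -2.09, 1.41 and 0.12 in sham, 1.14, 0.67 and 0.0087 in BPH, and -2.42, 0.23 and 0.92 in BPH+ghrelin, so that sham ran against the order of Dbp and BPH ran along with it. Leukocyte markers (7 of 10 tested) were at 0.79, 0.88 and 0.90 in sham, 0.23, -0.0076 and -0.74 in BPH, and -0.60, -0.67 and -0.78 in BPH+ghrelin, so that their mean deviations were high in sham like Cry2 and in the order of Dbp within BPH. The log2 values of their summed signal overlapped (15.4 to 15.8 in sham, 15.2 to 15.5 in BPH and 15.01 to 15.4 in BPH+ghrelin), and 3 of the 7 markers were higher in BPH than in sham. Smooth muscle markers (9 of 10 tested) were at 0.40, -0.31 and 0.11 in sham, -0.14, 0.30 and 0.57 in BPH, and -0.15, -0.26 and -0.53 in BPH+ghrelin.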

How the data were processed

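Rat prostate RNA had been labelled with Cy3 and hybridised to 9 one-colour Agilent arrays, and groups were taken from the sample labels. The authors deposited Feature Extraction 11.0.1.1 output with background-subtracted intensities that were not normalized between arrays, and a matrix of quantile normalized log2 values, which was used as an alternative. Here outlier spots were removed, spots of a probe were averaged, and log2 intensities were quantile normalized. Probes entered a comparison when at least 3 of its 6 arrays gave a signal well above background, and the brightest such probe stood for its gene. RefSeq accessions gave names (GRCr8) for 17998 of 30356 probes. Groups were compared with limma 3.58.1 (R 4.3.3; lmFit and eBayes, 9 arrays, Benjamini-Hochberg over all genes tested). A call is an adjusted p under 0.05. The smallest exact permutation p for 3 arrays against 3 is 0.1. The script was tested on simulated data. The number of arrays limits the precision. The members and lists, and the named genes (all members; Npas2, Nfil3, Tef, Ciart and Bhlhe40; other clock genes called; the 5 genes most like Dbp and Bmal1), were chosen with earlier results of these data known. Alternatives changed scaling, background correction (normexp on median signals, offset 50), filter, probe choice, blocks and arrays.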

Additional observations from a re-analysis of the deposited data

How the results depend on the processing

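The report rests on 3 arrays per group, dim probes such as Nr1d1 and Per1 are limited by their signal over background, and 1 array of each group lay between the others. Of 503 values of members under the alternatives, 452 kept direction and side of the threshold, 12 lost a call, 8 gained one and 31 turned their sign, none of them a value that had passed. Of 178 values of other clock genes, 114 kept both, 50 lost a call and 14 gained one. The number of all genes passing was 2 to 7084 (849 in the report) for BPH minus sham, 0 to 2110 (293) for BPH+ghrelin minus BPH, 2 to 1930 (1207) for BPH+ghrelin minus sham and 0 to 6783 (1328) over 3 groups. The random block for slide had negative correlations (-0.22 to -0.21) and cannot be read as an effect of slide.

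The number of members passing (1, 0 and 1 in the 3 comparisons and 1 over 3 groups in the report) was 2, 4 and 4 at 1.5-fold, and 2, 3, 4 and 6 at unadjusted p. It was 0, 2 and 0 with the 6 arrays compared alone, 0 in BPH minus sham, BPH+ghrelin minus sham and over 3 groups with slide as a fixed block, and 2, 1 and, over 3 groups, 4 with slide as a random block. Without the 3 arrays that lay between the others it was 0, 0, 0 and 0, where fewer arrays were fitted. With replicate number as a block it was 0 in BPH+ghrelin minus sham and 0 over 3 groups. Same-numbered arrays correlated at -0.13 to 0.25 in their deviations from group means. No correlation of differently numbered arrays was set beside these values, so whether same-numbered arrays shared any handling was not tested. Without 1 array, it ranged from 0 to 2, from 0 to 0, from 0 to 4 and, over 3 groups, from 0 to 3.

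Signs of small differences turned as follows, and the cause was not tested. For BPH minus sham, values were -0.034 (Nr1d1) with 75th percentile scaling; 0.15 (Bmal1) and 0.053 (Clock) with the mean of probes; 0.12 (Bmal1) and 0.73 (Per1) with the fixed slide block; 0.015 (Per3), -0.036 (Cry1) and -0.13 (Nr1d1) with the random one; and -0.00071 (Cry1) without the 3 arrays between the others. For BPH+ghrelin minus BPH, they were 0.22 (Per3, also the median of members) with the mean of probes, and -0.38 (Per1) and 0.19 (Per3) with the fixed slide block. For BPH+ghrelin minus sham, Per1 was -0.12 with 75th percentile scaling, -0.029 with normexp, -0.020 with the random slide block and -0.10 without the 3 arrays. Without 1 array, BPH minus sham ranged from -0.44 to 0.37 (Bmal1), -0.34 to 0.11 (Clock), -0.068 to 0.21 (Cry1), -0.83 to 0.31 (Dbp), -0.16 to 0.77 (Nr1d1), -0.17 to 0.88 (Nr1d2) and -0.23 to 0.042 (Per3), and BPH+ghrelin minus sham from -0.19 to 0.36 (Per1) and -0.15 to 0.46 (Per2).

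The difference between both sets of clock genes was, on BPH+ghrelin replicates 1, 2 and 3, -0.41, -0.51 and -0.56 with normexp, -0.97 (replicate 1) and -0.60 (replicate 3) with the mean of probes, -0.64 (replicate 1) with the deposited matrix, and, in an alternative chosen after seeing the data, -0.57 (replicate 1) and -0.61 (replicate 2) without Nr1d1. The correlations of Bmal1 with Cry1, Nr1d1, Nr1d2 and Dbp did not pass without the 2 arrays farthest from its median (0.88, -0.65, -0.81 and -0.93) or, in an alternative chosen after seeing the data, without the 3 arrays between the others (0.88, -0.78, -0.88 and -0.93). That with Clock was 0.39 after subtraction of group means.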
